A study of Homo sapiens with 18 samples.

Results

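The genes of the Polycomb repressive complexes were followed in the HCT116 line of human colorectal cancer cells. The 9 genes PCGF3, PCGF5, BMI1, RING1, RNF2, RYBP, EZH2, SUZ12 and EED were chosen by symbol, because hnRNPK, an RNA- and DNA-binding protein, is known to recruit PCGF3/5 complexes through noncoding RNA. All 9 were found among the 31004 genes of the count table. RNA sequencing was performed on 18 libraries in 6 groups of 3 biological replicates. Ctrl_NC, CRLM1_NC and Antisense_NC cells carried an empty vector, the long noncoding RNA CRLM1 or its antisense sequence, and received a negative control construct. Ctrl_hnRNPK, CRLM1_hnRNPK and Antisense_hnRNPK cells carried the same 3 backgrounds and received an hnRNPK expression construct. The study describes stable CRLM1 overexpression from a lentiviral vector that also encodes GFP and puromycin resistance, and delivery of hnRNPK by transfection. Whether the control and antisense cells were made in the same way, and so carry the selection marker, is not stated for these groups. All groups are of the HCT116 line.

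Polycomb proteins keep developmental genes silent by modifying histones. Polycomb repressive complex 1 (PRC1) places ubiquitin on histone H2A through RING1 or RNF2, the alternative catalytic subunits. Each PRC1 particle is built around 1 of several PCGF proteins. BMI1 (PCGF4) and its close relative PCGF2 form canonical complexes, and PCGF3 and PCGF5 form variant complexes that contain RYBP or its paralog YAF2. Polycomb repressive complex 2 (PRC2) methylates histone H3 at lysine 27 through EZH2 or EZH1, and its core holds SUZ12, a scaffold, and EED, which binds the methylated product. In X chromosome inactivation, hnRNPK links a long noncoding RNA to the PCGF3/5 complexes. In colorectal carcinoma, EZH2 and BMI1 are commonly raised.

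The promoters of EZH2, SUZ12 and BMI1 are shown because these genes stand for the catalytic subunit of PRC2, its scaffold and the core of canonical PRC1. They cover the 250 bases before a RefSeq start site on GRCh38.p14 and are printed 5′ to 3′ on the strand of the gene. EZH2 lies at chr7:148884292-148884541 on the minus strand, SUZ12 at chr17:31936757-31937006 on the plus strand and BMI1 at chr10:22320849-22321098 on the plus strand. Capitals mark matches on either strand to CCAAT, to CCCTCCC or to an E2F-type word (TTTCCCGC, TTTGGCGC, TTTCGCGC or TTTGCCGC).
EZH2: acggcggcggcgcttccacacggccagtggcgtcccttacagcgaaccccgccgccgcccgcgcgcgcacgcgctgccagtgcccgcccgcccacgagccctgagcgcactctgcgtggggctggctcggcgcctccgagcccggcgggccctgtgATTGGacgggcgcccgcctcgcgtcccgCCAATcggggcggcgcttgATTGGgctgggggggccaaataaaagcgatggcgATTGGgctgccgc
SUZ12: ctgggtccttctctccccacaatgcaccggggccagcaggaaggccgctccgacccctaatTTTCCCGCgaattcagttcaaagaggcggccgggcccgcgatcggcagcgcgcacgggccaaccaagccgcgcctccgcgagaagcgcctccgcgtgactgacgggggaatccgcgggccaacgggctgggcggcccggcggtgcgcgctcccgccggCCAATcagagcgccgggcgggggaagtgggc
BMI1: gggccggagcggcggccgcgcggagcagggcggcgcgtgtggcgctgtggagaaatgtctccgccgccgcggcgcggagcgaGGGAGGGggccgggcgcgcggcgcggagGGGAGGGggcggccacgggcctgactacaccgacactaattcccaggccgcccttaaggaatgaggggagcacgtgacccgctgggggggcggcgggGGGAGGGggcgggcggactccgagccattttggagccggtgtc
At the start sites shown, EZH2 held 4 CCAAT matches, SUZ12 held 1 E2F-type match and 1 CCAAT match, and BMI1 held 3 CCCTCCC matches. The second start site of EZH2, at chr7:148883486-148883735, held 0 CCAAT matches, and that of BMI1, at chr10:22321706-22321955, held 2 CCCTCCC matches. The printed matches do not overlap one another. These promoters and these 3 sets of letters were picked, out of 9 sets searched, after the matches were seen, and they are a description only. The other 6 sets were the NRF1 and YY1 motifs, CCGGAAGT and TGACGTCA, which matched no member promoter, CCCCTCCCC, which contains CCCTCCC and matched PCGF3 and BMI1, and GGGGCGGGG, which matched PCGF3 and PCGF5.

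All 9 members matched the promoter table, with 14 start sites, of which PCGF5 has 4, BMI1 2 and EZH2 2. The PCGF5 windows at chr10:91162743-91162992 and chr10:91162762-91163011 overlap. Each held 1 CCAAT match and 41 CpG and both are counted below, so the 14 are not all separate sequences. CCAAT was present in 5 of these 14 promoters and in 32.0% of all 35116, and CCCTCCC in 6 of 14 and in 24.7% of all. The E2F-type words were present in 1 of 14 and in 2.79% of all. The members' promoters were rich in CpG: of the 14, 11 held 29 to 54 CpG dinucleotides, against a median of 11 over all promoters. The exceptions were RYBP with 17, EED with 11 and 1 start site of PCGF5 with 2.

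PCGF3 lies at chr4:705748-770089, PCGF5 at chr10:91163012-91284337, BMI1 at chr10:22321099-22331484, RING1 at chr6:33208500-33212722 and RNF2 at chr1:185045526-185102603 (Gencode version 44, GRCh38). RYBP lies at chr3:72371825-72446621, EZH2 at chr7:148807257-148884321, SUZ12 at chr17:31937007-32001038 and EED at chr11:86201212-86278813. All are protein coding, with RYBP and EZH2 on the minus strand. RING1 has the shortest transcript, with 1741 bases and a GC content of 61.6%, above that of 91.5% of the genes in the table. PCGF3 was near the middle, at 47.2% against a median of 48.1% over all genes. The other 7 were low in GC, from 33.0% in EED through 34.3% in PCGF5, 36.0% in RNF2, 38.2% in SUZ12, 40.1% in BMI1 and 40.6% in RYBP to 40.8% in EZH2. Counts of PCGF3 could include reads of PCGF3-AS1 and 3 more antisense transcripts, because the use of strand in counting was not stated. BMI1 shares sequence with the read-through gene COMMD3-BMI1 on the same strand, so its counts are uncertain to that extent.

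Total counts ran from 19732681 to 27039520 per library, and the members' counts from 150 for EED to 2511 for RYBP. LINC01767, the annotated name of CRLM1, had 0 CPM (counts relative to library size, scaled by TMM) in the Ctrl background, 580 to 658 in the CRLM1 and 39.1 to 50.0 in the Antisense background, where reads of either strand cannot be told apart. HNRNPK ran from 424 to 480 CPM in the NC libraries and from 491 to 713 in the hnRNPK libraries. With all libraries its log2 fold change by hnRNPK was 0.35 ± 0.07 in the Antisense background (edgeR's quasi-likelihood test, adjusted p = 0.000839), and it did not pass in the Ctrl (0.29 ± 0.17, adjusted p = 0.362) or CRLM1 background (0.56 ± 0.16, adjusted p = 0.533). Without the third libraries it passed in both, at 0.44 ± 0.05 and 0.65 ± 0.05. Once a trend on GC content and length, described further on, was removed, HNRNPK was at -0.08 ± 0.08 in Ctrl, 0.27 ± 0.08 in CRLM1 and -0.15 ± 0.07 in Antisense cells with all libraries, none past the threshold. Without the third libraries it was then at -0.06 ± 0.05 in Ctrl cells and passed as higher in CRLM1 cells, at 0.18 ± 0.05 (adjusted p = 0.00244), and as lower in Antisense cells, at -0.20 ± 0.07 (adjusted p = 0.0324). The epithelial markers EPCAM, CDH1, KRT8, KRT18 and KRT19 were high, from 13.2 FPKM (fragments relative to transcript length and library size) upward, although VIL1 stayed at or below 0.11 and CDX2 at or below 3.27 FPKM. Of 4 markers of other cell types, PTPRC, PECAM1 and COL1A2 had 0 to 2 reads per library, and COL1A1 had 1.66 to 3.9 FPKM. Library 3 of Ctrl_hnRNPK and library 3 of CRLM1_hnRNPK stood apart from the other two of their groups: the chi-square per gene between replicates was 125 to 173 in pairs that held them, 6.31 and 11.1 in the remaining pairs of these groups and 2.99 to 36.7 in the other groups. The study excluded both from its own analysis. Here the counts of members called by hnRNPK are given with and without them. Some single fold changes and the likeness of profiles are not given both ways.

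Per transcript length, RING1 was the most abundant member, ranking first in 16 of 18 libraries, with 9.32 to 22.1 FPKM. RYBP ranked first in the other 2, which were CRLM1_hnRNPK libraries 1 and 2, with 11.9 and 11.1 FPKM. EED was the lowest member in 12 libraries and BMI1 in 5, and EED and SUZ12 tied at 2.06 FPKM in the third Ctrl_hnRNPK library. The ranges of EED and BMI1 were 1.23 to 6.82 and 2.20 to 5.72 FPKM. In Ctrl_NC the order of the mean FPKM was RING1 with 14.1 ± 0.525 (SD, n = 3), RYBP with 7.21 ± 0.375, RNF2 with 5.37 ± 0.131, PCGF3 with 4.99 ± 0.403, PCGF5 with 3.71 ± 0.223, EZH2 with 3.36 ± 0.196, BMI1 with 3.03 ± 0.616, SUZ12 with 2.30 ± 0.125 and EED with 1.56 ± 0.219. Neighbours whose 3 values overlapped in this order were RNF2 and PCGF3, PCGF5 and EZH2, EZH2 and BMI1, and BMI1 and SUZ12.

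**Figure D1:**
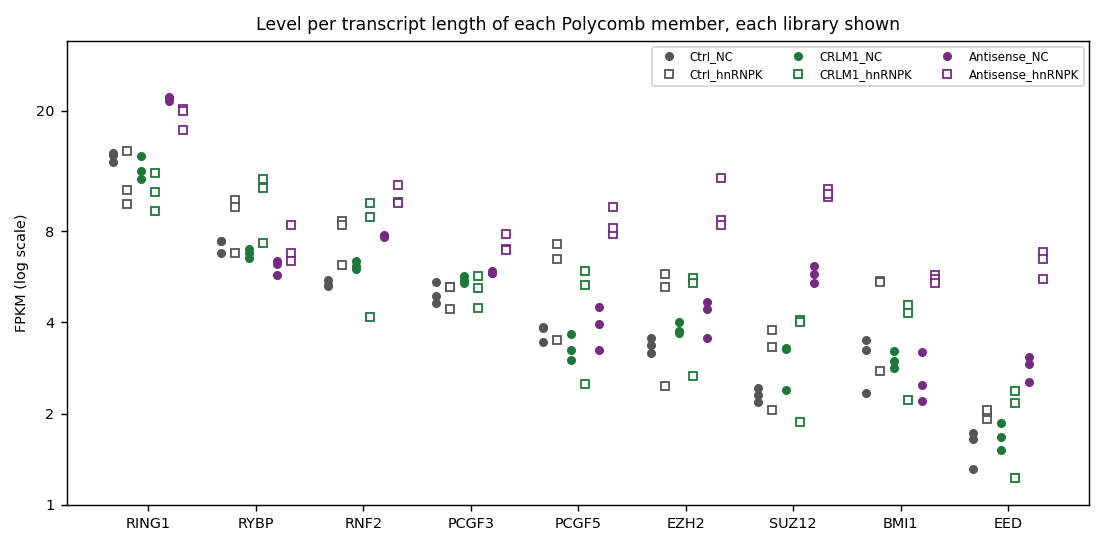
FPKM of each member on a log axis, 1 point per library, with circles for NC and open squares for hnRNPK groups and colours for the 3 backgrounds. RING1 lies highest in 16 of 18 libraries, and SUZ12 runs from 2.18 to 2.43 FPKM in Ctrl_NC to 10.4 to 11.1 in Antisense_hnRNPK.

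Within pairs of alternative subunits, the ratios of FPKM are given as levels. RING1 exceeded RNF2 by a ratio of 2.62 ± 0.160 (SD, n = 3) in Ctrl_NC and 2.83 ± 0.0425 in Antisense_NC, and by 1.86 ± 0.289 in Antisense_hnRNPK. The ratio of EZH2 to EZH1 was 1.05 ± 0.0320 in Antisense_NC and 2.41 ± 0.383 in Antisense_hnRNPK. BMI1 was far below PCGF2, with a ratio of 0.158 ± 0.0292 in Antisense_NC, and this ratio was 0.654 ± 0.0653 in Antisense_hnRNPK. RYBP exceeded YAF2 by 5.38 ± 0.0964 and 5.41 ± 0.221 in the same groups. Within the variant cores, the ratio of PCGF5 to PCGF3 was 0.667 ± 0.112 and 1.18 ± 0.179. These ratios were not tested, since 3 libraries against 3 cannot give an exact permutation p below 0.10. They also keep the trend on GC content and length that is described further on. RING1 has 61.6% GC and RNF2 36.0%. With that trend removed, their log2 fold changes by hnRNPK in the Antisense background were 0.14 and -0.48, against the fall of their ratio.

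The first question was how these genes differed between CRLM1_NC and Ctrl_NC cells. The sources do not say how often each background was made. A difference between the cell populations therefore cannot be told apart from CRLM1, here or in the other comparisons of backgrounds. Against Ctrl_NC, PCGF5, RING1 and RYBP were lower and SUZ12 was higher in CRLM1_NC, with fold changes of 0.848, 0.869, 0.893 and 1.24. This is 4 of 9 members, where 34.3% of the 14459 genes tested passed the same threshold (edgeR's quasi-likelihood test, Benjamini-Hochberg adjusted p of at most 0.05 over all genes). In bulk RNA, fewer cells of a type and less RNA per cell cannot be told apart, here or in the later comparisons. PCGF5 had 39.9, 35.9 and 39.5 CPM in Ctrl_NC and 30.1, 32.4 and 36.4 CPM in CRLM1_NC. The groups overlapped in a single library, the third of CRLM1_NC. This was a log2 fold change of -0.24 ± 0.07 (SE), with an adjusted p = 0.0103.
RING1 had 36.2, 35.8 and 33.7 CPM in Ctrl_NC and 30.6, 28.6 and 33.8 CPM in CRLM1_NC, with a log2 fold change of -0.20 ± 0.07 (adjusted p = 0.0288). RYBP had 79.8, 79.9 and 72.6 CPM and 70.4, 67.7 and 71.7 CPM, with a log2 fold change of -0.16 ± 0.05 (adjusted p = 0.0115). The RYBP groups did not overlap, whereas the third CRLM1_NC library of RING1 reached the Ctrl_NC range. SUZ12 had 14.0, 15.6 and 14.7 CPM and 20.4, 20.2 and 14.7 CPM, and its log2 fold change of 0.31 ± 0.11 (adjusted p = 0.0271) rested on the first and the second CRLM1_NC library. Leaving out 1 library at a time left 0 to 4 members past the threshold: 0 without the first Ctrl_NC library, 1 without the first or the second CRLM1_NC library, and 2 without the second or the third Ctrl_NC library. Of all genes tested, 4138 to 4699 passed when 1 library was left out. Fitting all 18 libraries together left 0 members, beside 102 of 15668 genes tested. PCGF3, BMI1, RNF2, EZH2 and EED did not pass, with log2 fold changes from -0.10 to 0.13.

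CRLM1_NC was also compared with Antisense_NC, the second control of the study. BMI1 and RYBP were higher in CRLM1_NC, and RING1, SUZ12 and EED were lower. That is 5 of 9 members, beside 56.4% of 14364 genes tested. RING1 had 48.5, 47.2 and 48.7 CPM in Antisense_NC, above every CRLM1_NC library, with a log2 fold change of -0.60 ± 0.07 (adjusted p = 3.43e-09). SUZ12 had 34.4, 32.5 and 30.7 CPM in Antisense_NC, also without overlap, with -0.78 ± 0.10 (adjusted p = 1.53e-08). RYBP had 59.9, 58.6 and 54.8 CPM in Antisense_NC, below every CRLM1_NC library, with 0.31 ± 0.06 (adjusted p = 1.21e-05).
EED, the subunit of PRC2 that reads its product, had 8.36, 7.62 and 9.18 CPM in CRLM1_NC and 14.0, 11.6 and 13.4 CPM in Antisense_NC, with -0.60 ± 0.12 (adjusted p = 8.00e-05). BMI1 overlapped, with 14.1, 13.3 and 15.0 CPM against 9.43, 13.7 and 10.7 CPM, and had 0.36 ± 0.12 (adjusted p = 0.0106). RING1 was thus lower in CRLM1_NC than in either control, RYBP and SUZ12 changed in opposite directions against the 2 controls (SUZ12 was higher against Ctrl_NC and lower against Antisense_NC, RYBP the reverse), and BMI1 and EED did not pass against Ctrl_NC, with -0.10 ± 0.12 and 0.04 ± 0.14. Against Ctrl_NC, neither RING1 nor SUZ12 passed once the trend on GC content was removed, as given further on.

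Both controls were therefore compared directly. Antisense_NC differed from Ctrl_NC in 6 of 9 members, where 66.5% of 14389 genes passed. SUZ12 rose 2.13-fold, from 14.0, 15.6 and 14.7 CPM to 34.4, 32.5 and 30.7 CPM, and the log2 fold change was 1.09 ± 0.09 (adjusted p = 1.04e-13). It was the only member called at 2-fold or more in the 6 comparisons of groups with all libraries. Of all genes, 14.1% reached that here, beside 1.58% in CRLM1_NC against Ctrl_NC, 7.18% in CRLM1_NC against Antisense_NC and 13.4% in Antisense_hnRNPK against Antisense_NC. EED had 8.54, 6.80 and 8.92 CPM in Ctrl_NC and 14.0, 11.6 and 13.4 CPM in Antisense_NC, a rise of 0.64 ± 0.13 on the log2 scale (adjusted p = 3.07e-05).
RING1 rose by 0.40 ± 0.07 (adjusted p = 1.37e-06), and RNF2 by 0.29 ± 0.07 (adjusted p = 0.000713), from 27.2, 27.5 and 28.4 CPM to 35.1, 34.9 and 34.9 CPM. RYBP fell, with a log2 fold change of -0.47 ± 0.06 (adjusted p = 2.49e-09), and BMI1 fell, with -0.45 ± 0.14 (adjusted p = 0.00521). Groups did not overlap for SUZ12, EED, RING1, RNF2 and RYBP, and overlapped for BMI1. The share of all genes without overlap was not counted, here or in the other comparisons. PCGF3, PCGF5 and EZH2 did not pass, with -0.01 ± 0.07, -0.15 ± 0.08 and 0.10 ± 0.11. These 3 comparisons share their groups pairwise and are not independent of each other.

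**Figure D2:**
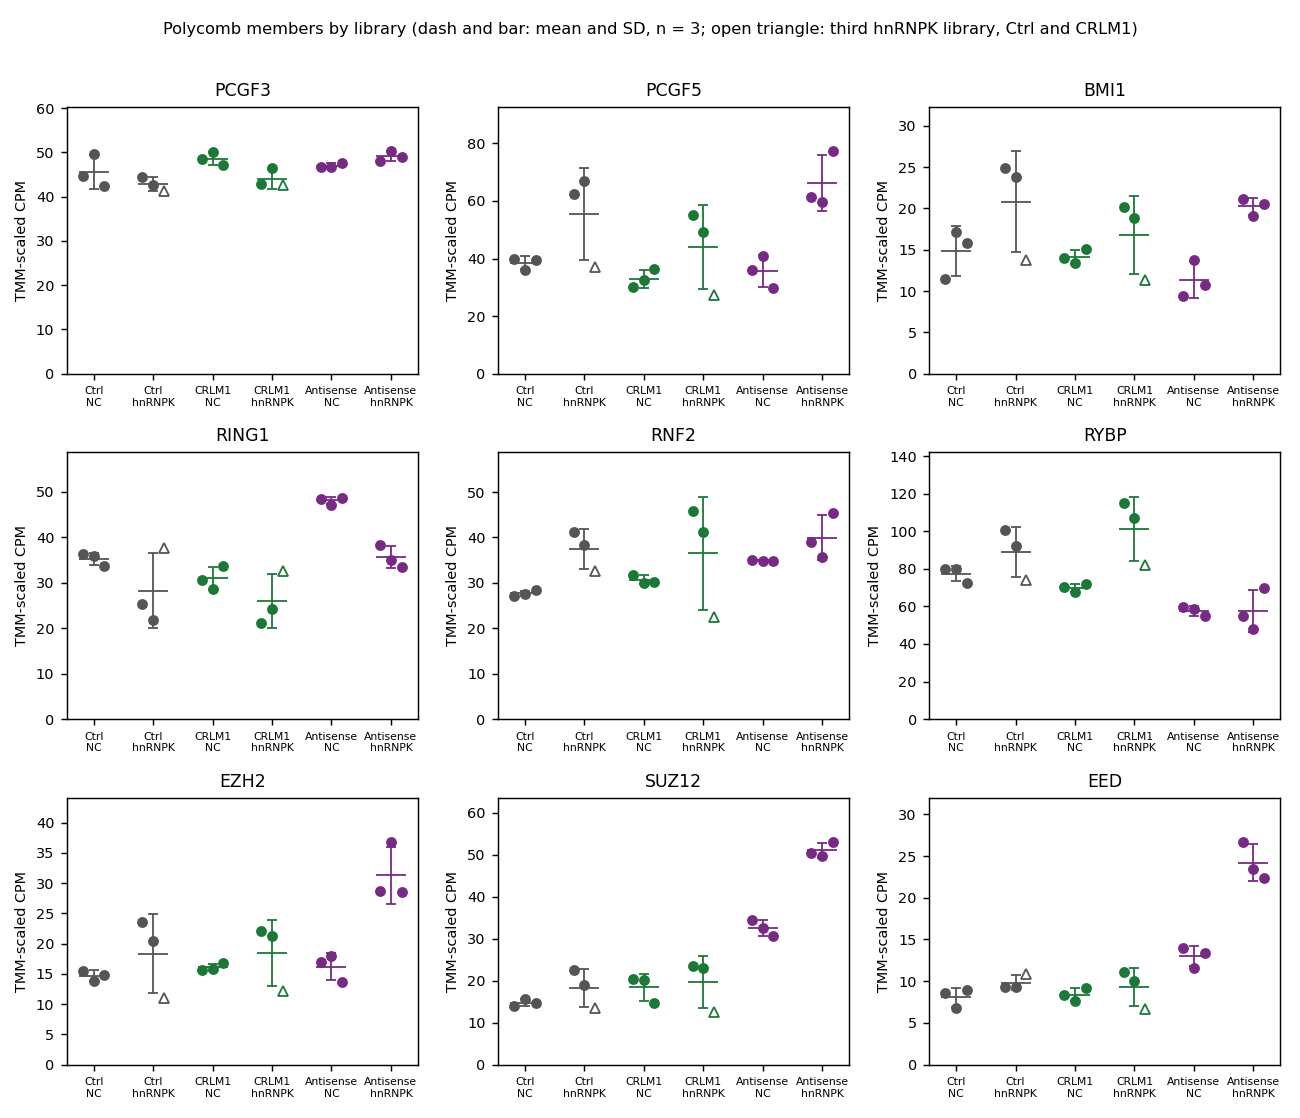
TMM-scaled CPM of each member in every library, with the mean and SD of each group (n = 3) as a dash and bar, and the third hnRNPK libraries of Ctrl and CRLM1 as open triangles. PCGF3 stays between 41.3 and 50.3 CPM in all 18 libraries, and the open triangles of EZH2, BMI1 and PCGF5 lie within or below the range of the matching NC group.

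The second question was what hnRNPK does in each background. In the Antisense background, where no hnRNPK library stood apart to that extent, all 3 genes of the PRC2 core rose, although EZH2 alone of them passed once the trend on GC content was removed (SUZ12 0.00 ± 0.08, adjusted p = 0.985, EED 0.24 ± 0.12, adjusted p = 0.134). EZH2 had 16.9, 17.9 and 13.7 CPM in Antisense_NC and 28.7, 36.8 and 28.5 CPM in Antisense_hnRNPK. SUZ12 had 34.4, 32.5 and 30.7 CPM and 50.3, 49.7 and 53.0 CPM, and EED had 14.0, 11.6 and 13.4 CPM and 26.7, 23.5 and 22.4 CPM. For all 3 genes each hnRNPK library was above each NC library, and the share of all genes that did so was not counted. The log2 fold changes were 0.95 ± 0.13 for EZH2 (1.93-fold, adjusted p = 2.56e-05), 0.64 ± 0.08 for SUZ12 (1.56-fold, adjusted p = 1.05e-05) and 0.89 ± 0.12 for EED (1.85-fold, adjusted p = 1.30e-05).

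Among the PRC1 subunits of the Antisense background, PCGF5 and BMI1 rose and RING1 fell, and none of these 3 passed with the trend removed. PCGF5 had 36.0, 41.0 and 29.8 CPM in Antisense_NC and 61.5, 59.6 and 77.3 CPM in Antisense_hnRNPK, with a log2 fold change of 0.88 ± 0.12 (adjusted p = 1.83e-05). BMI1 had 9.43, 13.7 and 10.7 CPM and 21.1, 19.1 and 20.5 CPM, with 0.83 ± 0.13 (adjusted p = 8.01e-05). RING1 had 48.5, 47.2 and 48.7 CPM and 38.3, 35.0 and 33.5 CPM, with -0.44 ± 0.09 (adjusted p = 0.000424). None of these 3 overlapped between the groups, where the share of all genes without overlap was likewise not counted. In all, 6 of 9 members passed, beside 63.9% of 14501 genes tested, 5 of them higher (33.4% of genes) and 1 lower (30.5%).

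PCGF3, the variant PRC1 core that shares its role with PCGF5, did not pass in the Antisense background, with 46.6, 46.7 and 47.7 CPM in Antisense_NC, 48.2, 50.3 and 49.1 CPM in Antisense_hnRNPK and 0.06 ± 0.08 (adjusted p = 0.513). RNF2 had 38.9, 35.6 and 45.3 CPM in Antisense_hnRNPK and did not pass, with 0.19 ± 0.09 (adjusted p = 0.0909). RYBP had 54.7, 48.0 and 69.7 CPM in Antisense_hnRNPK, a span that included all 3 Antisense_NC libraries, and did not pass with all libraries, at -0.02 ± 0.11 (adjusted p = 0.902). Without the third library of Antisense_hnRNPK, 7 of 9 members passed (62.3% of 14851 genes), with RYBP at -0.21 ± 0.08 (adjusted p = 0.0376) as the addition.

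In the Ctrl background no gene passed with all libraries, members included: 0 of 9 members and 0.0% of 14607 genes by edgeR, 2246 genes at an unadjusted p under 0.05, and 2 genes by DESeq2. The third library differed from the other two in most members. PCGF5 had 62.3, 66.8 and 37.0 CPM in Ctrl_hnRNPK against 39.9, 35.9 and 39.5 CPM in Ctrl_NC, so that the third library lay within the control range. EZH2 had 23.5, 20.4 and 11.0 CPM against 15.5, 13.8 and 14.8 CPM, with the third library below every control. RING1 went the other way, with 25.3, 21.9 and 37.7 CPM against 36.2, 35.8 and 33.7 CPM.
Without the third library, 7 of 9 members passed, beside 59.6% of 15004 genes. PCGF5 (0.77 ± 0.08, adjusted p = 3.72e-07), BMI1 (0.73 ± 0.14), EZH2 (0.60 ± 0.12), RNF2 (0.55 ± 0.09), SUZ12 (0.51 ± 0.12) and RYBP (0.34 ± 0.07) were higher on the log2 scale, and RING1 (-0.56 ± 0.10) was lower. EED (0.23 ± 0.16) and PCGF3 (-0.04 ± 0.09) did not pass. With the third library the same values were 0.51 ± 0.23, 0.47 ± 0.26, 0.30 ± 0.26, 0.41 ± 0.17, 0.29 ± 0.21, 0.18 ± 0.18 and -0.34 ± 0.21, so the directions held and the errors grew.

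The CRLM1 background was likewise without calls. With all libraries 0 of 9 members and 0.0% of 14394 genes passed by edgeR, 1332 genes had an unadjusted p under 0.05, and DESeq2 called 8 genes. RYBP, the subunit of the variant complexes, had 70.4, 67.7 and 71.7 CPM in CRLM1_NC and 115, 107 and 82.0 CPM in CRLM1_hnRNPK, so that all 3 hnRNPK libraries, including the third, were above the controls. RNF2 had 31.8, 29.9 and 30.3 CPM and 45.9, 41.2 and 22.4 CPM, with the third library below every control. PCGF5 had 30.1, 32.4 and 36.4 CPM and 55.2, 49.3 and 27.3 CPM, again with the third library below every control.
Without the third library, 8 of 9 members passed, beside 58.5% of 14685 genes. PCGF5 (0.72 ± 0.08), RYBP (0.71 ± 0.06), RNF2 (0.56 ± 0.08), BMI1 (0.51 ± 0.11), EZH2 (0.48 ± 0.11), EED (0.38 ± 0.15) and SUZ12 (0.38 ± 0.12) were higher, and RING1 (-0.41 ± 0.10) was lower. PCGF3 (-0.07 ± 0.08) did not pass. With the third library PCGF5 had 0.47 ± 0.28, RYBP 0.58 ± 0.19, RNF2 0.31 ± 0.28 and RING1 -0.22 ± 0.20. BMI1 then had 0.30, EZH2 0.26, EED 0.19 and SUZ12 0.15. By edgeR on counts, PCGF3 thus passed in none of the 6 comparisons of groups, with or without the third libraries, while PCGF5 passed in the Antisense background with all libraries and in the other two without the third. With all libraries, log2 fold changes of PCGF3 ran from -0.11 to 0.08.

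**Figure D3:**
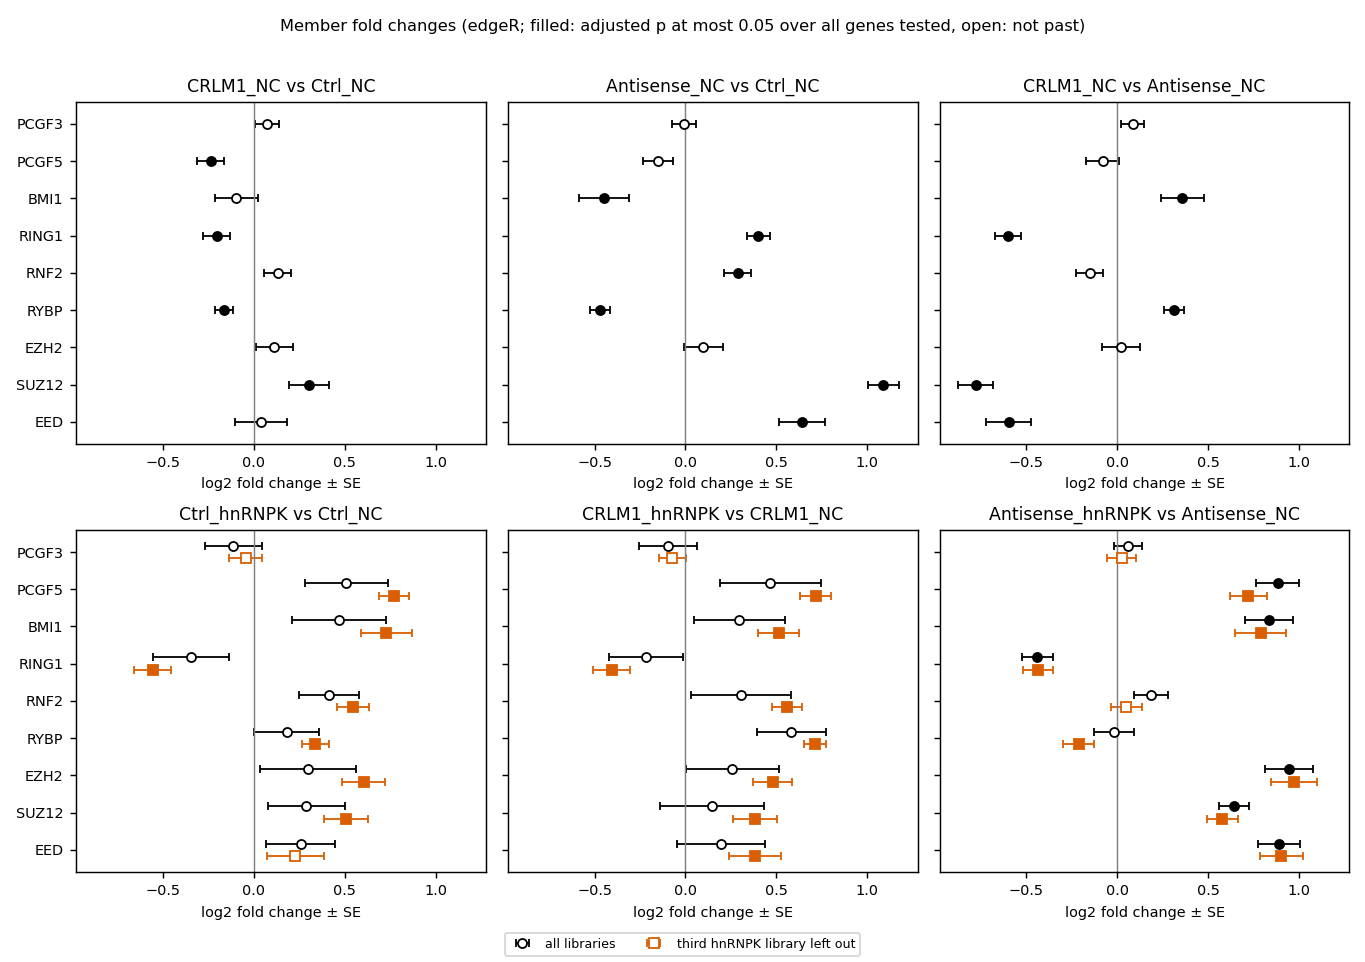
Log2 fold change ± SE of each member in the 6 comparisons of groups, with black circles for all libraries and orange squares without the third hnRNPK library, filled where the adjusted p was at most 0.05. SUZ12 reaches 1.09 in Antisense_NC against Ctrl_NC, and in the Ctrl and CRLM1 backgrounds every hnRNPK symbol for all libraries is open.

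In the bulk RNA, changes over all genes moved with GC content, and 8 of the 9 members lie away from its middle. Across the genes tested, Spearman's rho between the log2 fold change by hnRNPK and transcript GC content was -0.71 in the Antisense background with all libraries. Leaving out the third libraries, the values were -0.74 (Ctrl) and -0.76 (CRLM1). Genes are not independent replicates, and the fold changes share their libraries, so these are descriptions. In the Antisense background the median log2 fold change was 0.71 over the 408 genes with 33 to 36% GC, 0.61 over the 1756 genes with 39 to 42% GC and -0.63 over the 1121 genes with 60 to 63% GC. The 5 members that rose have 33.0 to 40.8% GC and RING1, which fell, has 61.6%.

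**Figure D4:**
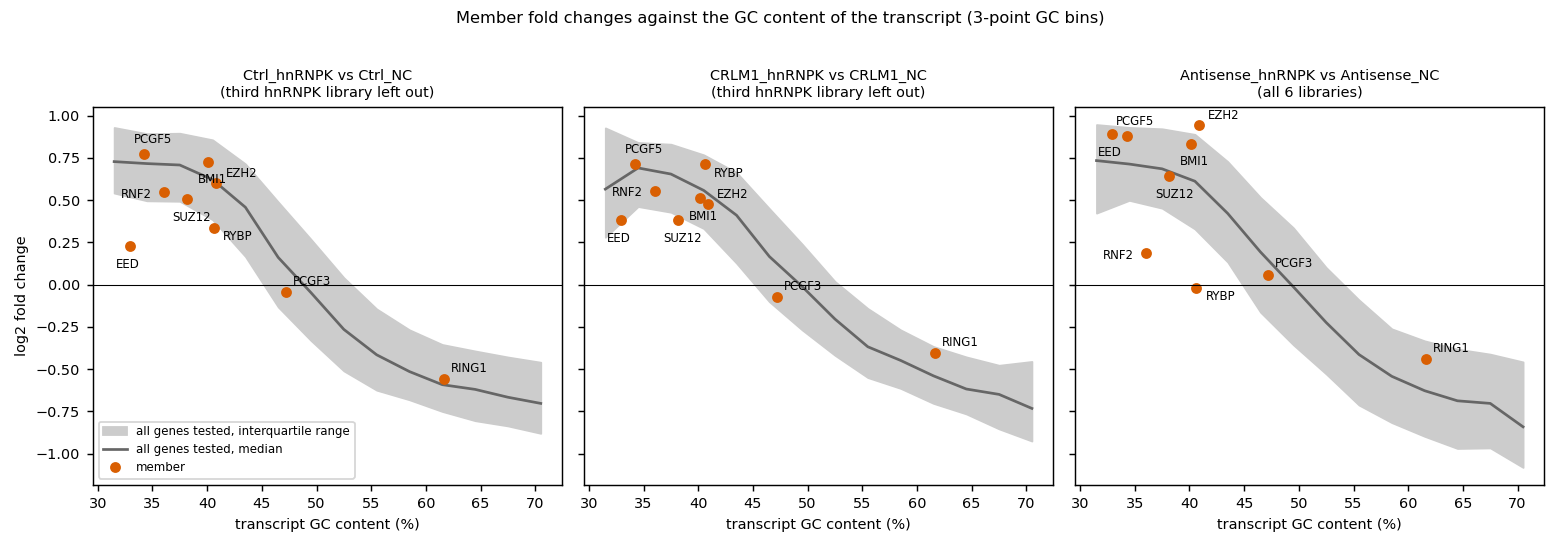
Log2 fold change by hnRNPK against transcript GC content in percent, with the median (line) and interquartile range (band) of all genes tested per bin of 3 percentage points, and the members as labelled points. The Ctrl and CRLM1 panels are without the third hnRNPK library, and the Antisense panel holds all 6 libraries. In the Antisense background EZH2 lies above the band, RNF2 and RYBP lie below it, at 0.19 and -0.02, and RING1 lies within it, at -0.44.

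A smooth trend on GC content and length was then removed from each library. In the Antisense background 3 of 9 members passed after this, beside 39.8% of 14337 genes: EZH2 was higher, with 0.41 ± 0.13 (adjusted p = 0.0234), and RNF2 and RYBP were lower, with -0.48 ± 0.08 (adjusted p = 0.000580) and -0.59 ± 0.10 (adjusted p = 0.000466). PCGF5 (0.20 ± 0.10), BMI1 (0.26 ± 0.13), EED (0.24 ± 0.12), SUZ12 (0.00 ± 0.08) and RING1 (0.14 ± 0.08) no longer passed. With all libraries 0 of 9 members passed after trend removal in the Ctrl background (0.0% of genes) and 0 of 9 in the CRLM1 background (0.253%). Without the third libraries, an alternative chosen after seeing the data, RYBP alone passed in the Ctrl background (-0.23 ± 0.07, adjusted p = 0.0210, 1 of 9 members beside 26.8% of 14811 genes). RYBP was also the only one in the CRLM1 background, in the opposite direction (0.19 ± 0.06, adjusted p = 0.0131, 1 of 9 beside 27.5% of 14514 genes). Whether the trend came from library preparation or from the cells was not tested.

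**Figure D5:**
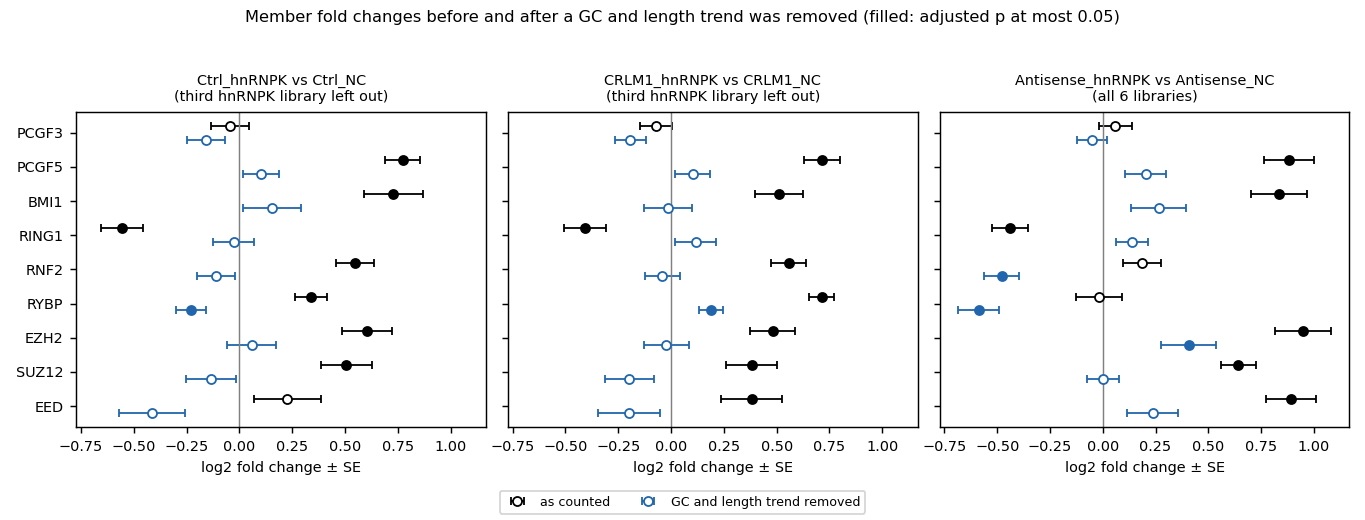
Log2 fold change ± SE by hnRNPK in the 3 backgrounds before (black) and after (blue) the GC and length trend was removed, filled where the adjusted p was at most 0.05. The Ctrl and CRLM1 panels are without the third hnRNPK library, and the Antisense panel holds all 6 libraries. In the Antisense background EZH2 stays filled at 0.41, while RNF2 and RYBP become filled at -0.48 and -0.59.

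The trend was weaker in the comparisons of backgrounds, where rho with GC was -0.16 for CRLM1_NC against Ctrl_NC, 0.29 for CRLM1_NC against Antisense_NC and -0.30 for Antisense_NC against Ctrl_NC. With it removed, SUZ12 remained higher in Antisense_NC than in Ctrl_NC, with 0.70 ± 0.08 (adjusted p = 1.27e-09), as did EED with 0.38 ± 0.12 and RING1 with 0.58 ± 0.06. RYBP (-0.84 ± 0.05) and BMI1 (-0.78 ± 0.13) were lower by more than before, PCGF5 (-0.53 ± 0.07) and EZH2 (-0.24 ± 0.10) were now lower, and RNF2 (-0.06 ± 0.07) no longer passed. That made 7 of 9 members, beside 64.5% of 14223 genes. In CRLM1_NC against Ctrl_NC, PCGF5 (-0.30 ± 0.07) and RYBP (-0.25 ± 0.05) passed, 2 of 9 members beside 33.8% of 14289 genes. RING1 (-0.12 ± 0.07, edgeR adjusted p = 0.207) and SUZ12 (0.23 ± 0.11, adjusted p = 0.0960) no longer passed there.
Against Antisense_NC, 8 of 9 members passed beside 53.7% of 14204 genes, with PCGF3 the exception at 0.12 ± 0.06 (adjusted p = 0.0961). BMI1 (0.63 ± 0.12), RYBP (0.58 ± 0.05), EZH2 (0.28 ± 0.10), PCGF5 (0.24 ± 0.08) and RNF2 (0.16 ± 0.07) were higher in CRLM1_NC, and RING1 (-0.71 ± 0.07), SUZ12 (-0.46 ± 0.09) and EED (-0.33 ± 0.12) were lower. FPKM, which is scaled by the authors to mapped fragments, shifted the median of all genes by a log2 value of 0.26 in Antisense_hnRNPK against Antisense_NC, 0.18 in Antisense_NC against Ctrl_NC and -0.13 in CRLM1_NC against Antisense_NC. On that scale PCGF3 passed in 2 comparisons, both in the direction of the shift. In Antisense_hnRNPK against Antisense_NC limma called 8919 of 16740 genes, 6030 of them higher. In Antisense_NC against Ctrl_NC it called 9354 of 16500 genes, 6534 of them higher. In simulated data with small changes, most of the few calls made by limma on FPKM were false. That simulation gave few calls where these libraries gave many, so it cannot rate the calls here. PCGF3 was 0.30 ± 0.08 higher in Antisense_hnRNPK than in Antisense_NC (limma, adjusted p = 0.0127) and 0.23 ± 0.07 higher in Antisense_NC than in Ctrl_NC (adjusted p = 0.0240). In Antisense_hnRNPK against Antisense_NC, RNF2 also passed on that scale, at 0.42 ± 0.08 (adjusted p = 0.0019), and RING1 did not, at -0.19 ± 0.08 (adjusted p = 0.0647).

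Whether hnRNPK acted differently between backgrounds was tested by interaction terms. With all libraries 0 of 9 members passed in each of the 3 tests, where 0.0% of 15188 genes passed for CRLM1 minus Ctrl, 1.12% of 15233 for CRLM1 minus Antisense and 0.0% of 15346 for Antisense minus Ctrl (221 and 2179 genes, respectively, had an unadjusted p under 0.05 in the tests without calls). Without the third libraries of Ctrl_hnRNPK and CRLM1_hnRNPK, the change of RYBP by hnRNPK was larger in CRLM1 than in Ctrl cells by a log2 value of 0.40 ± 0.10 (adjusted p = 0.0157), the only one of 9 members beside 3.45% of 15485 genes. Keeping all 3 Antisense_hnRNPK libraries, a choice made after seeing the data, RYBP was also larger in CRLM1 than in Antisense cells, by 0.74 ± 0.14 (adjusted p = 0.00153), as was RNF2, by 0.38 ± 0.13 (adjusted p = 0.0494), and these were 2 of 9 members beside 17.4% of 15568 genes. In Antisense minus Ctrl, EED passed at 0.64 ± 0.19 (adjusted p = 0.0451), 1 of 9 beside 6.62% of 15743 genes, whereas RYBP did not, at -0.37 ± 0.15 (adjusted p = 0.146).
With the trend removed from the same libraries, RYBP had 0.45 ± 0.09 for CRLM1 minus Ctrl (adjusted p = 0.00353, 1 of 9 members beside 4.22% of genes). It had 0.79 ± 0.13 for CRLM1 minus Antisense (adjusted p = 0.000437), with RNF2 at 0.45 ± 0.12 (adjusted p = 0.0114), 2 of 9 beside 18.3% of genes. EED had 0.67 ± 0.19 for Antisense minus Ctrl (adjusted p = 0.0395), 1 of 9 beside 7.42%. With all 18 libraries kept and the trend removed, RYBP passed in CRLM1 minus Antisense alone, at 0.91 ± 0.16 (adjusted p = 0.00223, 1 of 9 members beside 12.4% of 15037 genes). The other 2 differences had 0 of 9 then, beside 0.0% and 2.19% of genes.
Leaving out the third library of every hnRNPK group, the third Antisense_hnRNPK library included, raised the calls in both differences that involve the Antisense background, although that library did not stand apart to the same extent. For CRLM1 minus Antisense, 4 of 9 members then passed beside 26.5% of 15489 genes, with RYBP at 0.89 ± 0.10, RNF2 at 0.47 ± 0.12, EZH2 at -0.53 ± 0.17 and EED at -0.56 ± 0.18. For Antisense minus Ctrl, 3 of 9 passed beside 16.0% of 15695 genes, with EED at 0.72 ± 0.19, RYBP at -0.51 ± 0.12 and RNF2 at -0.45 ± 0.12. The same libraries with the trend removed gave 4 and 3 members beside 27.3% and 16.6% of genes, and in the Antisense background itself 3 of 9 members beside 44.6%. The calls of EZH2 and EED in the first difference and of RYBP and RNF2 in the second therefore rested on leaving out the third Antisense_hnRNPK library. The 3 tests share groups with each other.

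The rest of the pathway was counted from a list of 50 further genes, of which 49 were in the count table and 48 were tested. In CRLM1_NC against Ctrl_NC 16 were higher and 8 lower, beside 34.3% of all genes tested, led by ASXL2, a partner of the H2A deubiquitinase BAP1, at 0.87 ± 0.11, and CBX7, a reader of methylated H3, at -0.54 ± 0.09. In CRLM1_NC against Antisense_NC 10 were higher and 23 lower, beside 56.4% of all genes, with RBBP7, a histone chaperone of PRC2, at 0.42 ± 0.05 and L3MBTL2, of a variant PRC1, at -1.17 ± 0.11. In Antisense_NC against Ctrl_NC 27 were higher and 13 lower, beside 66.5%, with ASXL2 at 1.73 ± 0.10 and RBBP7 at -0.78 ± 0.05. The list's median log2 fold changes were 0.04, -0.13 and 0.24, beside 0.01, -0.00 and -0.00 over all genes tested. With the trend on GC content and length removed, the list's medians were 0.06, -0.02 and 0.06, beside 0.01, 0.04 and -0.04.

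By hnRNPK in the Antisense background, 13 of the 48 were higher and 25 lower, beside 63.9% of all genes, with a median of -0.25 beside 0.04 over all genes. USP16, an H2A deubiquitinase, rose by 1.10 ± 0.09 and PCGF6, the core of another variant PRC1, by 0.90 ± 0.13. PCGF2 fell, with -1.21 ± 0.09, as did BCOR, of the PCGF1 complex, with -1.06 ± 0.13. PCGF2 had 68.5, 73.5 and 78.7 CPM in Antisense_NC and 29.7, 31.2 and 34.7 CPM in Antisense_hnRNPK, without overlap. With the GC trend left in, its direction was opposite to that of its relative BMI1. BMI1 did not pass once that trend was removed (0.26 ± 0.13). Without the third libraries 15 were higher and 23 lower in the Ctrl background, beside 59.6%, with MTF2, an accessory subunit of PRC2, at 0.85 ± 0.09 and EPOP, another, at -1.07 ± 0.13. In the CRLM1 background 17 were higher and 19 lower, beside 58.5%, with MTF2 at 0.81 ± 0.08 and EPOP at -1.35 ± 0.11. With all libraries 0 of the 48 passed in either by edgeR, with 4 (Ctrl) and 7 (CRLM1) at an unadjusted p under 0.05. With the trend removed, 6 were higher and 15 lower of 47 tested in the Antisense background, beside 39.8% of all genes. The list's median there was then -0.05, beside 0.01 over all genes. USP16 was then at 0.44 ± 0.09, PCGF6 at 0.40 ± 0.13 and BCOR at -0.78 ± 0.13. The lowest gene of the list was CSNK2A2, at -0.92 ± 0.08, in place of PCGF2. With the third libraries left out and the trend removed, 2 were higher and 14 lower in Ctrl cells (26.8% of all genes). The same setting gave 7 higher and 14 lower in CRLM1 cells (27.5%).

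Over the 6 group means, the profile most like that of PCGF3 among 12959 genes with a mean CPM of at least 1 was that of DNMT1, with a root mean square difference of 0.036 on the centred log2 scale, followed by BOD1 with 0.039 and CHURC1-FNTB with 0.041. For PCGF5, NDFIP2 with 0.043 and FANCD2 with 0.045 were among the nearest 3. With 6 points each, these likenesses are descriptions, and the group means include the third hnRNPK libraries.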

How the data were processed

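Per the labels and the study's methods, RNA of 18 HCT116 libraries was sequenced in pairs of reads. The authors trimmed reads with FASTX-Toolkit, aligned them with TopHat2 to GRCh38, and deposited raw counts of uniquely mapped reads per Gencode gene and FPKM values. The strand setting of counting is not given in the sources used here. Nothing says whether replicates came from separate cultures beyond the word biological, so p-values measure the spread between these libraries.

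Counts were filtered with filterByExpr, scaled by TMM and tested with the quasi-likelihood test of edgeR 4.0.16 (R 4.3.3, robust fit) on the libraries of each comparison, adjusting p by Benjamini-Hochberg across every gene tested, with a threshold of 0.05. Total counts ran from 19732681 to 27039520. FPKM served for levels between genes and, as log2(FPKM + 0.1 or 1) in limma 3.58.1, as an alternative, as did DESeq2 1.42.0. For trend removal, each library's log2 counts were regressed on splines (5 degrees of freedom) of transcript GC content and length, centred so that the TMM scaling was kept, for the 29999 of 31004 genes with values. Tests were checked on simulated data, where limma on FPKM missed most small changes. Most of the few calls it made in the simulated data with small changes were false. This does not rate the many calls it made in the real libraries. Replicate numbers did not pair the libraries (correlations of deviations from -0.12 to 0.07).

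Members, gene lists and tests were chosen with earlier results of these data known. The text names all 9 members, their alternative subunits where a ratio is given, genes among the 3 highest and 3 lowest of the pathway list that passed in a comparison, and the 3 genes nearest in profile to PCGF3 and PCGF5, of which 1 is not reported here.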

Additional observations from a re-analysis of the deposited data

Results flagged for a closer look

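Differences of the hnRNPK effect between backgrounds past the interaction test (edgeR, adjusted p of at most 0.05) drew attention, as log2 values. Without the third hnRNPK libraries of Ctrl and CRLM1 alone, RYBP had 0.4035 for CRLM1 minus Ctrl, RYBP 0.7415 and RNF2 0.3827 for CRLM1 minus Antisense, and EED 0.6439 for Antisense minus Ctrl. Leaving out the third Antisense_hnRNPK library as well, CRLM1 minus Antisense had RYBP at 0.887, RNF2 at 0.4656, EZH2 at -0.5317 and EED at -0.5611, and Antisense minus Ctrl had EED at 0.7163, RNF2 at -0.4534 and RYBP at -0.5094. None of these passed with all libraries and the GC trend left in, and RYBP in CRLM1 minus Antisense passed with all libraries once the trend was removed.

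For PCGF3, each CRLM1_hnRNPK library was below each CRLM1_NC library and each Antisense_hnRNPK library above each Antisense_NC library. It was picked for this pattern, and the share of all genes that did so was not counted. With the trend on GC content and length removed, PCGF3 was at -0.05 in the Antisense background (edgeR adjusted p = 0.598). In the CRLM1 background it lay from -0.19 to -0.07 over all fits, so the directions then no longer differed. The difference of the effects, CRLM1 minus Antisense, was -0.1669 with all libraries and did not pass the interaction test (SE 0.172, edgeR adjusted p = 0.615).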

How the results depend on the processing

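The count of members past the threshold rested most on the third hnRNPK libraries (of every group in the fit, Antisense included) and on the GC trend. Leaving them out gave 7 (Ctrl) and 8 (CRLM1) members in place of 0, and 1, 4 and 3 in place of 0 for the differences CRLM1 minus Ctrl, CRLM1 minus Antisense and Antisense minus Ctrl. Leaving them out and removing the trend gave 1, 1, 3, 1, 4 and 3 for the 3 backgrounds (Ctrl, CRLM1, Antisense) and the same 3 differences. Leaving out only the third libraries of Ctrl and CRLM1 gave 2 and 1 for the differences CRLM1 minus Antisense and Antisense minus Ctrl, with the trend left in or removed. Removing the trend alone gave 2 in place of 4 for CRLM1_NC against Ctrl_NC, 8 in place of 5 against Antisense_NC, 3 in place of 6 in the Antisense background and 1 in place of 0 for CRLM1 minus Antisense. A single fit of all 18 libraries gave 0, 3 and 3 for the comparisons of backgrounds. Of 15668 genes, it called 102 in CRLM1_NC against Ctrl_NC, 2357 in CRLM1_NC against Antisense_NC and 5093 in Antisense_NC against Ctrl_NC. For CRLM1_NC against Ctrl_NC, limma gave 1 with a pseudocount of 0.1, 1 with a pseudocount of 1 and 0 without a filter. These stood beside 4009 of 16708, 3990 of 16708 and 3152 of 26005 genes. Requiring a 2-fold change left 0, 0, 1 and 0 members in CRLM1_NC against Ctrl_NC, CRLM1_NC against Antisense_NC, Antisense_NC against Ctrl_NC and Antisense_hnRNPK. Leaving out 1 library gave 0 to 4, 4 to 5 and 6 to 7 members for the 3 comparisons of backgrounds, 0 to 7, 0 to 8 and 6 to 7 for Ctrl, CRLM1 and Antisense hnRNPK, and 0 to 0, 0 to 2 and 0 to 1 for the differences. With the replicate number as a block, the counts were 4, 5, 6, 0, 0, 6, 0, 0 and 0, as without it; replicate numbers did not pair the libraries. The cause was not tested.

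Signs of log2 fold changes turned in 117 values, 35 of them on leaving out 1 library, and 13 of the 117 involved a value past the threshold. With the trend removed, values were in CRLM1_NC against Antisense_NC PCGF5 0.24 and RNF2 0.16, in Antisense_NC against Ctrl_NC RNF2 -0.065 and EZH2 -0.24, in Ctrl_hnRNPK PCGF5 -0.0069, RNF2 -0.068, RYBP -0.23, EZH2 -0.14, SUZ12 -0.20 and EED -0.17, in CRLM1_hnRNPK BMI1 -0.051, RING1 0.013, RNF2 -0.11, EZH2 -0.062, SUZ12 -0.23 and EED -0.20, in Antisense_hnRNPK PCGF3 -0.052, RING1 0.14 and RNF2 -0.48, in CRLM1 minus Ctrl PCGF3 0.027, PCGF5 0.067 and EZH2 0.053, in CRLM1 minus Antisense RING1 -0.11 and in Antisense minus Ctrl RING1 0.17. With the third libraries left out and the trend removed, they were in Ctrl_hnRNPK RNF2 -0.11, RYBP -0.23, SUZ12 -0.13 and EED -0.41, in CRLM1_hnRNPK BMI1 -0.014, RING1 0.12, RNF2 -0.042, EZH2 -0.023, SUZ12 -0.20 and EED -0.20, in Antisense_hnRNPK PCGF3 -0.070, RING1 0.11, RNF2 -0.57 and SUZ12 -0.019, in CRLM1 minus Ctrl PCGF3 0.00046, PCGF5 0.029, RNF2 0.098 and EED 0.24, in CRLM1 minus Antisense RING1 -0.014 and in Antisense minus Ctrl RING1 0.16. With the third libraries left out, they were in CRLM1 minus Ctrl RNF2 0.038 and EED 0.18, in CRLM1 minus Antisense RING1 -0.011 and in Antisense minus Ctrl PCGF5 -0.010 and RING1 0.16. With only those of Ctrl and CRLM1 left out, the value was in Antisense minus Ctrl RING1 0.10. With the trend then removed, it was in Antisense minus Ctrl RING1 0.15. With limma on log2(FPKM + 0.1), with or without a filter, they were in CRLM1_NC against Ctrl_NC BMI1 0.0090, in CRLM1_NC against Antisense_NC PCGF3 -0.080 and EZH2 -0.13, in Antisense_NC against Ctrl_NC PCGF3 0.23 and PCGF5 0.061, in Antisense_hnRNPK RYBP 0.22, in CRLM1 minus Antisense RING1 -0.061 and RNF2 -0.22 and in Antisense minus Ctrl RING1 0.078. With a pseudocount of 1, they were in CRLM1_NC against Ctrl_NC BMI1 0.0036, in CRLM1_NC against Antisense_NC PCGF3 -0.069 and EZH2 -0.11, in Antisense_NC against Ctrl_NC PCGF3 0.20 and PCGF5 0.051, in Antisense_hnRNPK RYBP 0.19, in CRLM1 minus Antisense RING1 -0.050 and RNF2 -0.19 and in Antisense minus Ctrl RING1 0.067. Without a filter on counts, they were in CRLM1_NC against Antisense_NC EZH2 -0.00074 and in Antisense_NC against Ctrl_NC PCGF3 0.024. In the single fit, they were in CRLM1_NC against Antisense_NC EZH2 -0.0010 and in Antisense_NC against Ctrl_NC PCGF3 0.031. Leaving out 1 library, ranges were in CRLM1_NC against Ctrl_NC BMI1 -0.24 to 0.027 and EED -0.077 to 0.12, in CRLM1_NC against Antisense_NC PCGF5 -0.18 to 0.025 and EZH2 -0.079 to 0.089, in Antisense_NC against Ctrl_NC PCGF3 -0.065 to 0.059, in CRLM1_hnRNPK SUZ12 -0.019 to 0.38, in Antisense_hnRNPK RYBP -0.21 to 0.064, in CRLM1 minus Ctrl PCGF3 -0.073 to 0.048, PCGF5 -0.29 to 0.20, BMI1 -0.43 to 0.037, RING1 -0.064 to 0.35, RNF2 -0.34 to 0.14, EZH2 -0.33 to 0.17, SUZ12 -0.35 to 0.091 and EED -0.25 to 0.12, in CRLM1 minus Antisense RNF2 -0.10 to 0.38 and in Antisense minus Ctrl RING1 -0.28 to 0.10.

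The lowest count of a member was 150, for EED, so counting error is largest for that gene, and 3 libraries a group limit every comparison. The counts of 7 and 8 on leaving out 1 library were reached without the third hnRNPK library of Ctrl and of CRLM1.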
